A study of Saccharomyces cerevisiae with 2 samples.

Results

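The 41 genes described here encode the cytosolic translation initiation, elongation and release factors of budding yeast, *Saccharomyces cerevisiae*. They were taken by name from a list of open reading frames (ORFs) that was drawn up by function, with earlier results of these data known, and make up 41 of the 6207 ORFs in the table. All 41 were on the array. Both replicates gave a value for 35 of them, 3 had a value only in replicate 1 and 3 were blank in both. The share measured in both replicates was 85.4% for these genes and 50.2% for all ORFs.

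Protein synthesis begins when initiation factors select an mRNA by its cap and bring the small ribosomal subunit, loaded with the initiator tRNA, to the start codon. Elongation factors then deliver aminoacyl-tRNAs and move the ribosome along the message, and release factors free the finished chain at the stop codon. In yeast many of these genes are strongly expressed during rapid growth, as are those of the ribosome.

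RNA was compared on 2-colour DNA microarrays between cells exposed to caspofungin and untreated cells of the same strain, BY4741 carrying a wsc1 mutation. Caspofungin blocks synthesis of β-1,3-glucan in the cell wall, and Wsc1 is a sensor of wall stress at the plasma membrane. Cultures were grown in YEPD medium at 24 °C and split, and the treated part received 15 ng/ml of the drug for 2 h. Every RNA came from the mutant, so no value here compares it with a wild type, and the labels do not say what the wsc1 mutation is. WSC1 itself was blank in both replicates, as were MET17 and URA3, which BY4741 lacks. Of the 6207 ORFs, 2453 were blank in both, so a blank does not show that a gene is absent. In these bulk cultures, fewer cells with an RNA and less of it per cell cannot be told apart.

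The data were 2 columns of log2 dye ratios, 1 per replicate. Caspofungin RNA carried Cy3 in replicate 1 and Cy5 in replicate 2, so the sign of replicate 1 was turned before the columns were combined. The sources used here do not state which dye is the numerator. A negative value therefore stands for less RNA in the treated cells if Cy5 is the numerator, and for more RNA if Cy3 is. The labels name 2 cultures and 4 arrays per condition without saying which of them each column holds, so the spread between the columns may be technical. Values were present for 3705 ORFs in replicate 1 and 3166 in replicate 2, and for 3117 in both. Spot intensities were not used here, so how far a gene stood above background is unknown, and the number of columns limits the precision. HIS3 and LEU2, also deleted wholly or in part in BY4741, did have values, HIS3 with 0.07 and 0.41 and LEU2 with 0.12 and 0.47 in replicates 1 and 2. Their means of 0.24 and 0.29 exceeded the median size of the members' means, 0.12. What their probes cover was not examined, and the part of background in the members' values was not tested.

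None of the 35 measured translation factor genes passed the test, and the replicates placed many of them on different sides. Of the 35, 23 had a mean on the negative side (65.7%), against 47.9% of all ORFs. Their median log2 ratio was -0.09, and that of all ORFs was 0.01. In limma, which tested the mean of each ORF against 0, an adjusted p under 0.05 was reached by 0 members and by 0% of all ORFs. The lowest adjusted p of a member was 0.366, which was also the lowest of all ORFs tested. At an unadjusted p of 0.05 there were 2 members, both negative, where 7.76% of all ORFs lay on the negative side and 5.61% on the positive side. For the other 33 members the 95% interval of the mean included 0. The intervals here rest on limma's standard error, which pools the spread of an ORF with that of all ORFs tested. They therefore do not follow from the SD of a gene alone. After the columns were centred on their medians, limma called 3.69% of all ORFs and 0 members.

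More members lay on the negative side in replicate 2 than in replicate 1, and so did more of all ORFs. In replicate 2, 29 of the 35 were negative (82.9%), against 56.2% of all ORFs. The members' median there was -0.18, against -0.04 for all ORFs with both values. In replicate 1 after turning, 19 of the 35 were negative (54.3%), against 44.6% of all ORFs. The members' median was -0.07, against 0.04 for all ORFs with both values. The sign was the same in both replicates for 15 members (42.9%), and for 64.1% of all ORFs. Of these 15, 14 were negative in both (40.0%, against 32.4% of all ORFs) and 1 was positive in both, where 31.6% of all ORFs were. A further 15 members were positive in replicate 1 and negative in replicate 2 (42.9%, against 23.7% of all ORFs). Between the turned replicates Pearson r was -0.18 and Spearman rho -0.09 across the 35 members, and r was 0.29 across the 3117 ORFs. These correlations run across genes of the same arrays and are given as a description.

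**Figure D1:**
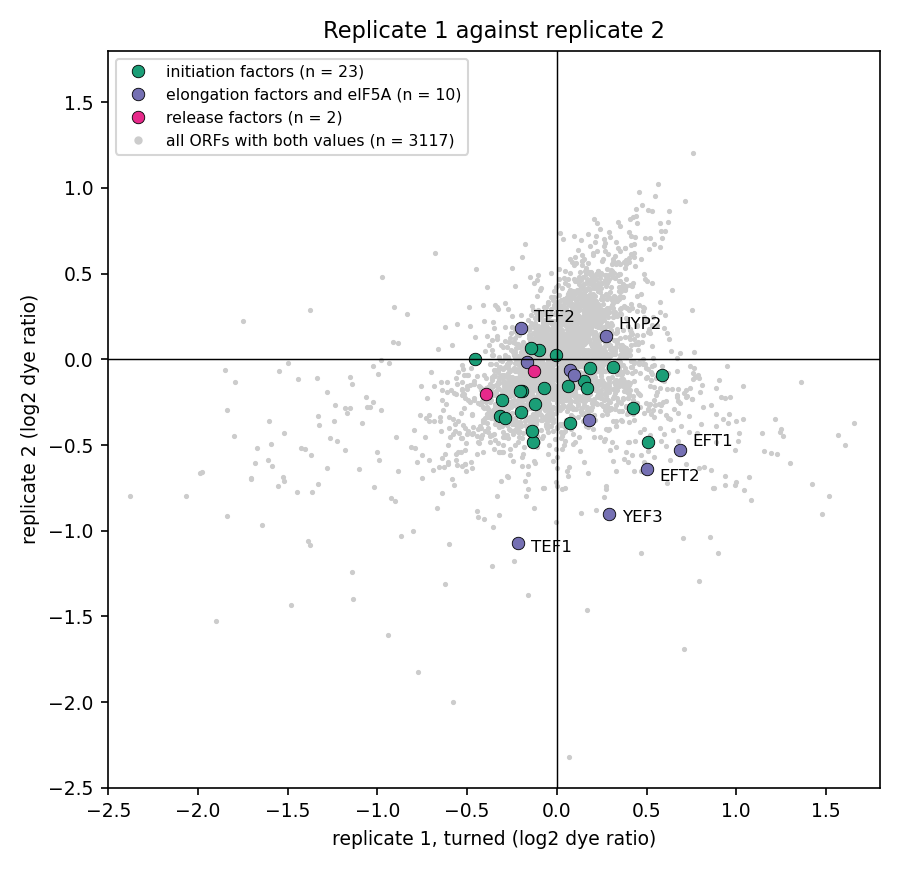
Log2 dye ratio in replicate 1 after turning (x axis) against replicate 2 (y axis) for the 3117 ORFs with both values (grey) and the 35 translation factor genes (coloured by class). HYP2 is the 1 member that lies above 0 on both axes, and EFT1, EFT2 and YEF3 lie in the lower right.

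The genes of mRNA activation encode the proteins that bind the cap and prepare the message, and 8 of the 10 were measured in both replicates. CDC33 (YOL139C), the cap-binding protein eIF4E, had -0.12 in replicate 1 and -0.26 in replicate 2, a mean of -0.19 ± 0.10 (SD, n = 2). TIF3 (YPR163C), which encodes eIF4B, a stimulator of the helicase eIF4A, had -0.30 and -0.24, with a mean of -0.27 ± 0.05, the greatest in size of this group. Both replicates were on the negative side for these genes and for PAB1 (YER165W), the poly(A)-binding protein, at -0.07 and -0.17. EAP1 and CAF20 encode proteins that bind eIF4E and restrain its use, and their replicates differed in sign. EAP1 (YKL204W) had 0.59 and -0.09, and CAF20 (YOR276W) had -0.14 and 0.07. DED1 (YOR204W), a helicase that helps the ribosome scan, had 0.31 and -0.05. None of the 8 was past the test, the lowest adjusted p being 0.385 for TIF3 (limma).

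The scaffold eIF4G joins the cap-binding protein to the helicase, and it is encoded by a pair of paralogs that could not be compared. TIF4631 (YGR162W) had 0.40 after turning in replicate 1 and was blank in replicate 2. TIF4632 (YGL049C) was blank in both.

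The 6 subunits of eIF3, the complex that organises the initiation machinery on the small ribosomal subunit, were all negative in replicate 2, from -0.48 to -0.13. In replicate 1 they were 3 negative and 3 positive. TIF35 (YDR429C), TIF34 (YMR146C) and NIP1 (YMR309C) were negative in both. TIF35 had -0.13 and -0.48 with a mean of -0.31 ± 0.25, TIF34 had -0.20 and -0.31, and NIP1 had -0.20 and -0.18. The subunits with opposite signs were RPG1 (YBR079C), the largest by gene length, at 0.51 and -0.48, PRT1 (YOR361C) at 0.43 and -0.29, and HCR1 (YLR192C) at 0.15 and -0.13. The means of these 3 lay near 0, between 0.01 and 0.07. The lowest adjusted p of the 6 was 0.397, for TIF34 (limma).

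The small factors that set the accuracy of start codon choice repeated closely, with a median difference between the replicates of 0.02 over the 3 measured genes, against 0.21 over all 35 members and 0.19 over all ORFs. TIF11 (YMR260C) encodes eIF1A and had -0.32 in replicate 1 and -0.33 in replicate 2. Its mean of -0.32 ± 0.01, had the lowest p of all members (adjusted p = 0.366, limma). The 95% interval of that mean was -0.62 to -0.03. SUI1 (YNL244C), which encodes eIF1, had -0.20 and -0.19, with a mean of -0.20 ± 0.01. TIF5 (YPR041W), the GTPase-activating factor eIF5, had -0.01 and 0.02, so that both values were near 0 with a 95% interval of the mean from -0.28 to 0.30. FUN12 (YAL035W), the subunit-joining factor eIF5B, had 0.05 in replicate 1 and was blank in replicate 2.

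The eIF2 complex carries the initiator tRNA, and its 3 subunits had means on the negative side. SUI2 (YJR007W), the α subunit that the kinase Gcn2 phosphorylates, had -0.29 and -0.34. Its mean of -0.32 ± 0.04, a size of 1.24-fold, had an adjusted p of 0.367 (limma). TIF11 and SUI2 were the 2 members under an unadjusted p of 0.05. SUI3 (YPL237W), the β subunit, had -0.14 and -0.42, also negative in both. GCD11 (YER025W), the γ subunit and the GTPase of the complex, had 0.08 and -0.37, so its replicates lay on opposite sides.

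The eIF2B complex recharges eIF2 with GTP, and none of its subunits with both values had the same sign in both. GCN3 (YKR026C), the α subunit, had -0.46 in replicate 1 and 0.00087 in replicate 2, a mean of -0.23 ± 0.32. GCD7 (YLR291C) and GCD1 (YOR260W), the β and γ subunits, had 0.17 and -0.16, and 0.19 and -0.05. GCD2 (YGR083C), the δ subunit, had 0.88 in replicate 1, the highest value of any member in either replicate, and was blank in replicate 2. GCD6 (YDR211W), the catalytic ε subunit, was blank in both.

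**Figure D2:**
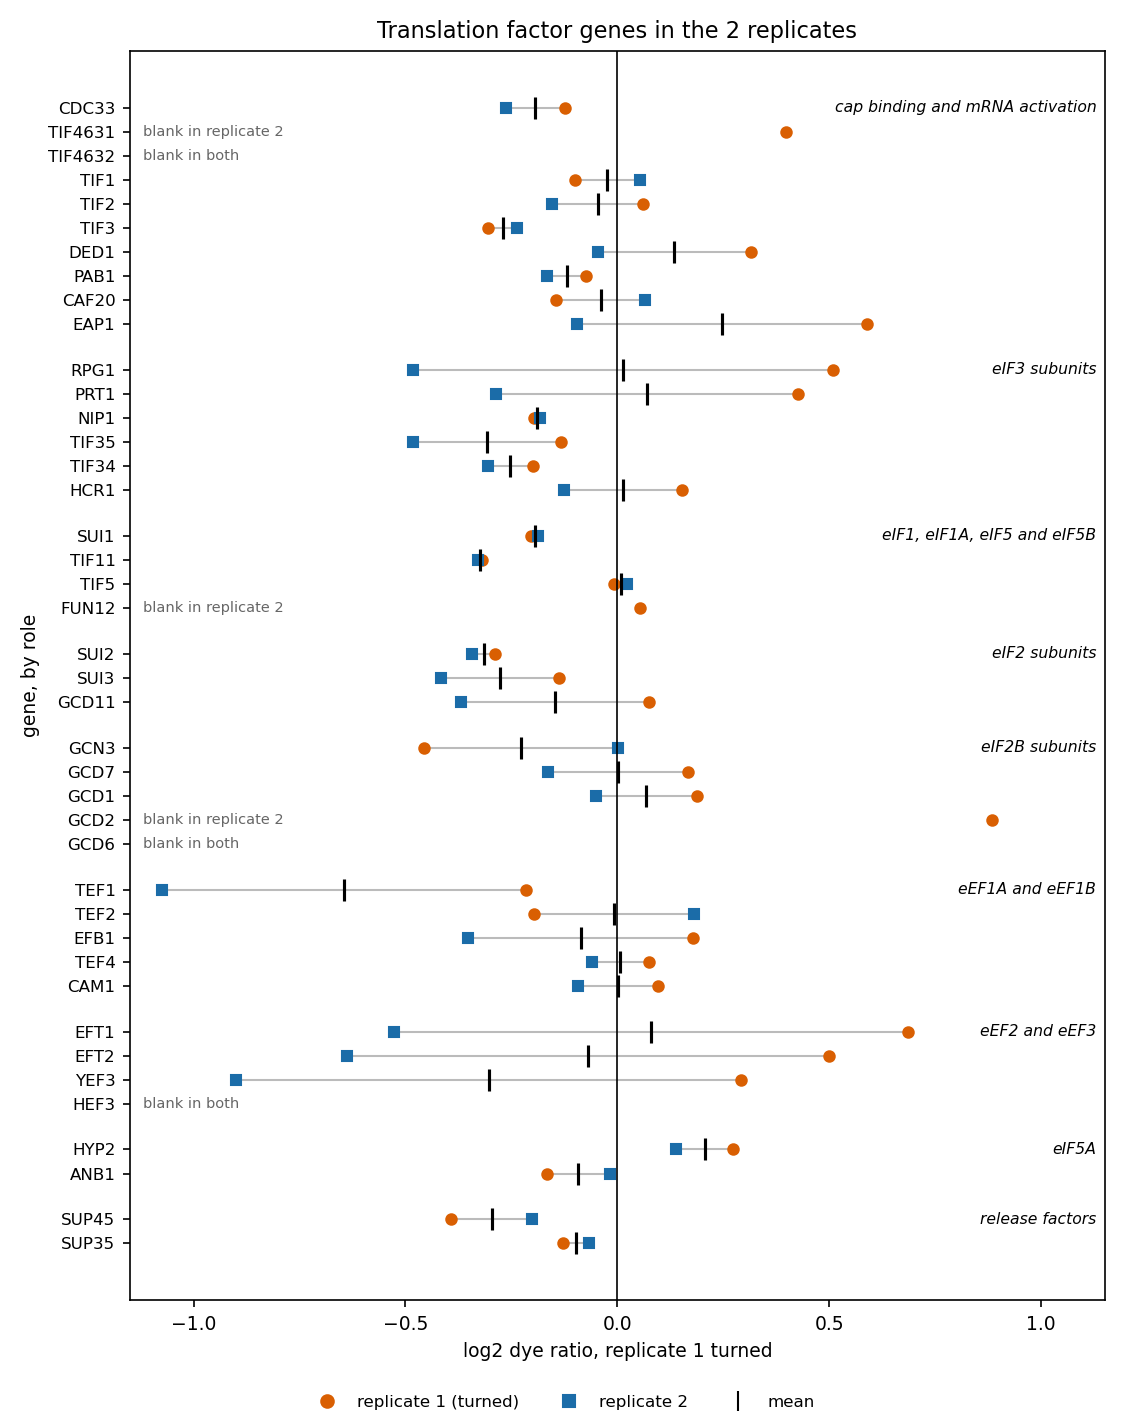
Log2 dye ratio of each of the 41 genes, grouped by role, in replicate 1 after turning (orange circles) and replicate 2 (blue squares), with their mean as a black bar and a grey line between the replicates. TIF11, SUI1, NIP1 and SUI2 repeat closely on the negative side, while EFT1, EFT2, YEF3 and RPG1 are positive in replicate 1 and negative in replicate 2.

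The replicates lay far apart for several elongation factor genes. The protein eEF1A brings aminoacyl-tRNAs to the ribosome and is one of the most abundant yeast proteins. TEF1 (YPR080W), which encodes it, had -0.22 in replicate 1 and -1.07 in replicate 2. Its mean of -0.65 ± 0.61, a size of 1.56-fold, was the greatest of all members, and the 95% interval ran from -1.36 to 0.07 (adjusted p = 0.385, limma). TEF1 was the only member with a mean beyond 1.5-fold and no change of sign between replicates, 1 of 35 on the negative side against 3.3% of all ORFs. On the positive side there were 0, against 0.738% of all ORFs. Replicate 2 decided this value, since replicate 1 alone was within 1.5-fold.

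eEF1B is the exchange factor of eEF1A. EFB1 (YAL003W), its catalytic α subunit, had 0.18 and -0.35. The γ subunit is encoded by TEF4 (YKL081W) and CAM1 (YPL048W), which had 0.07 and -0.06, and 0.10 and -0.09. All 3 were positive in replicate 1 and negative in replicate 2, with means between -0.09 and 0.01.

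eEF2 moves the ribosome along the message by 1 codon, and eEF3 is an ATPase that fungi need in addition. EFT1 (YOR133W) and EFT2 (YDR385W), which encode eEF2, had 0.69 and 0.50 in replicate 1 and -0.53 and -0.64 in replicate 2. YEF3 (YLR249W), the eEF3 gene used in growing cells, had 0.29 in replicate 1 and -0.90 in replicate 2. All 3 genes thus had opposite signs, with a median difference of 1.19 between the replicates and SDs of 0.80 to 0.86, and their means were 0.08, -0.07 and -0.30. The 95% interval of the EFT1 mean ran from -0.88 to 1.04. HEF3 (YNL014W), the paralog of YEF3 that is little expressed in standard medium, was blank in both.

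eIF5A carries the modified amino acid hypusine and helps the ribosome through stretches that are slow to translate. HYP2 (YEL034W), the form used with oxygen, had 0.27 and 0.14, a mean of 0.21 ± 0.10, and was the only member positive in both replicates (adjusted p = 0.436, limma). ANB1 (YJR047C), the form made when oxygen is scarce, had -0.17 and -0.02.

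The release factors were negative in both replicates. SUP45 (YBR143C), eRF1, which reads the stop codon, had -0.39 and -0.20, a mean of -0.30 ± 0.14 and a size of 1.23-fold (adjusted p = 0.385, limma). SUP35 (YDR172W), eRF3, the GTPase partner that can form the [PSI+] prion, had -0.13 and -0.07. The size of SUP35 was 1.07-fold, with an adjusted p of 0.674.

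Several factors are encoded by paralogs so alike that labelled cDNA of one may bind the probe of the other, and their values were set side by side. EFT1 and EFT2 encode the same protein. They differed by 0.19 in replicate 1 and by 0.11 in replicate 2, less than the 1.21 and 1.14 by which each differed between the replicates. TIF1 (YKR059W) and TIF2 (YJL138C) both encode eIF4A, the RNA helicase of initiation. TIF1 had -0.10 and 0.05 and TIF2 had 0.06 and -0.15, differences of 0.16 and 0.21 between the genes in replicates 1 and 2. TEF1 and TEF2 (YBR118W) also encode 1 protein, eEF1A, and differed by 0.02 in replicate 1. In replicate 2 TEF1 had -1.07 and TEF2 had 0.18, the greatest difference within any pair. TEF4 and CAM1 differed by at most 0.03 in either replicate, and HYP2 and ANB1 by 0.44 and 0.16. No difference within a pair was tested, and cross-hybridization was not tested.

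**Figure D3:**
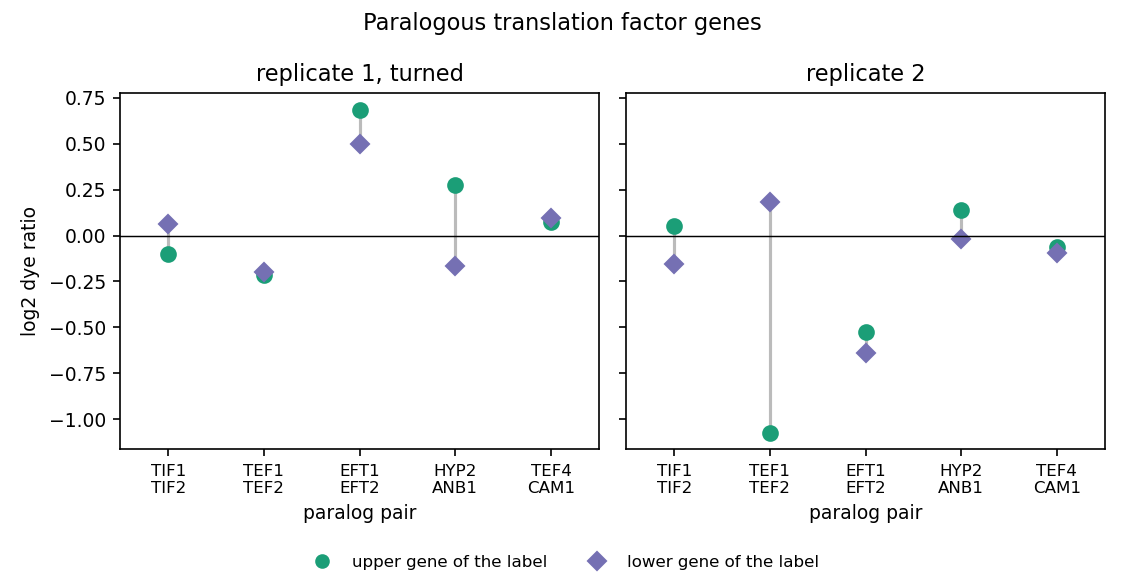
Log2 dye ratio of both genes of the 5 paralog pairs with all values, in replicate 1 after turning (left) and replicate 2 (right), joined by a grey line. EFT1 and EFT2 stay together in each replicate and change side between them, while TEF1 and TEF2 differ by 0.02 in replicate 1 and lie at -1.07 and 0.18 in replicate 2.

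The signs were also counted by gene length, a feature that was looked at after the values were seen. Gene length was taken from the RefSeq annotation of assembly R64, from start to stop codon with introns. Of the 17 members longer than 1248 bases, the median of the 35, 10 were positive in replicate 1 and negative in replicate 2, and 6 had the same sign. Of the 18 up to that length, 5 were positive in replicate 1 and negative in replicate 2, and 9 had the same sign. Among all ORFs with a length, the sign was the same for 56.7% of the 1208 longer ones and 69.45% of the 1761 shorter ones. Positive in replicate 1 and negative in replicate 2 were 32.4% of the longer and 18.1% of the shorter ones. Before the turning such a gene has a negative value in both columns, on the side of the same dye each time.

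Across the 35 members, log2 length and the turned ratio had a Pearson r of 0.52 in replicate 1 (Spearman rho 0.52) and of -0.34 in replicate 2 (rho -0.25). For the mean of both, r was 0.17 (rho 0.30). Over the 2969 ORFs with a length the values of r were 0.11, -0.10 and 0.02. For the 21 aminoacyl-tRNA synthetase genes r was 0.27 in replicate 1 and -0.33 in replicate 2, the same signs as in the members. For the 131 ribosomal protein genes it was 0.16 and 0.37, positive in both. With the mean of the columns as deposited, before the turning, r was -0.56 for the members and -0.55 for the synthetase genes. It was -0.18 over all ORFs and 0.28 for the ribosomal protein genes. All points of a replicate share the same labelled RNAs, and no test was made. The part of the dyes in these signs was not tested.

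**Figure D4:**
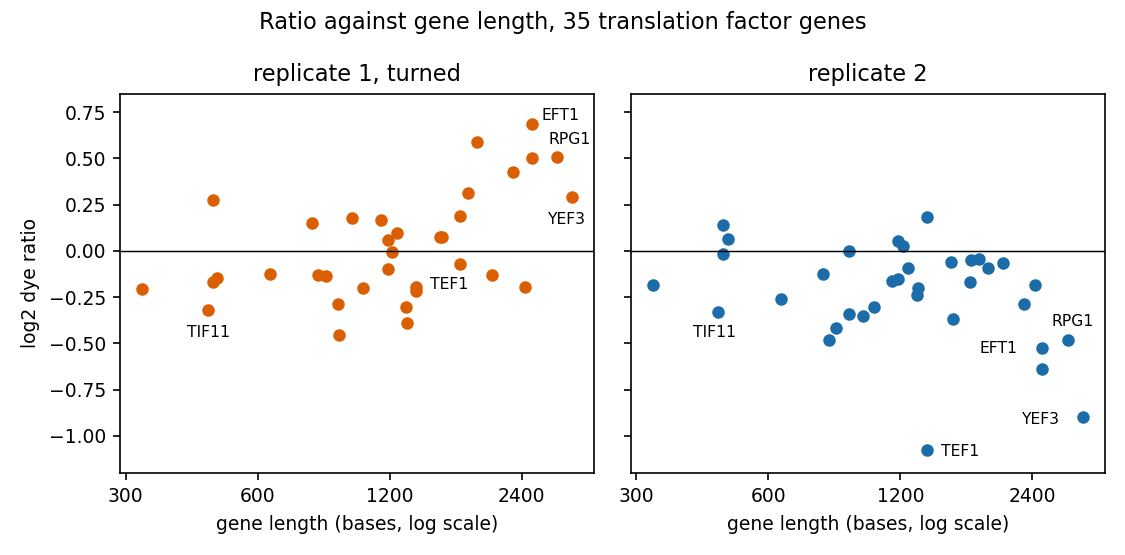
Log2 dye ratio of the 35 members with both values against gene length in bases (log axis), in replicate 1 after turning (left) and replicate 2 (right). EFT1, RPG1 and YEF3, among the longest genes, lie above 0 in replicate 1 and below 0 in replicate 2, and the short gene TIF11 is below 0 in both. Other genes differ from these: the long genes NIP1 and SUP35 are below 0 in both, and the short gene HYP2 is above 0 in both (points not labelled).

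The position of a gene in the order of ORF names was also checked, because it can follow the layout of an array. Of the 35 members, 4 had an ORF beyond 2-fold in replicate 1 among the 3 measured ORFs on either side, and 2 had one in replicate 2. They were EAP1, PRT1, SUI2 and EFT1 in replicate 1, and PRT1 and HYP2 in replicate 2. The share of all ORFs with such a neighbour was not counted, so these counts have no background beside them. The neighbours of TEF1 had a median of -0.07 in replicate 1 and -0.04 in replicate 2, and none was beyond 2-fold.

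Of 48 other genes of translation outside the 41, 29 had both values, 12 negative and 17 positive, and none passed the test. The negative share was 41.4%, against 47.9% of all ORFs. The sign was the same in both replicates for 23 of the 29 (79.3%), against 42.9% of the factors and 64.1% of all ORFs. These differences were not tested. The median log2 ratio of the 29 was 0.01, and their lowest adjusted p in limma was 0.366, with 0 called in either direction. Among the other initiation factors and regulators of initiation, 4 of 5 means were negative and 1 was positive. SCD6 (YPR129W), which binds eIF4G and represses translation, had -0.58 and -0.70, a mean of -0.64 ± 0.08. YIH1 (YCR059C), an inhibitor of the activation of Gcn2, had 0.60 and 0.75, a mean of 0.68 ± 0.10. GIR2 (YDR152W), a partner of Gcn1, had -0.30 and -0.32. GCN2 was blank in both replicates and GCN1 in replicate 1, so the kinase branch that acts on eIF2 was only partly seen.

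Genes of ribosome recycling, rescue and nonsense-mediated decay had 4 of 5 means on the positive side. Both replicates were positive for 3 of the 5 (60.0%, against 31.6% of all ORFs). The 1 negative mean (20.0%, against 47.9% of all ORFs) was that of NAM7 (YMR080C), the helicase Upf1 of nonsense-mediated decay. NAM7 had -0.51 and -0.49, a mean of -0.50 ± 0.01. MTQ2 (YDR140W) and TRM112 (YNR046W) form the methyltransferase that modifies eRF1, and both were positive, at 0.31 and 0.48, and 0.14 and 0.43. The enzymes that make hypusine on eIF5A lay on opposite sides. DYS1 (YHR068W), deoxyhypusine synthase, had -0.64 and -0.24, and LIA1 (YJR070C), deoxyhypusine hydroxylase, had 0.14 and 0.41. Over that list, which also holds the diphthamide enzymes that modify eEF2, 4 were negative and 7 positive. DPH2 (YKL191W), of the first step of diphthamide synthesis, had 0.52 and 0.16.

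Of the ribosome-associated chaperones 3 were negative and 3 positive. SSZ1 (YHR064C), an Hsp70 that works with ZUO1 (YGR285C), had -1.55 in replicate 1 and -0.07 in replicate 2, so replicate 1 decided its mean of -0.81 ± 1.05. ZUO1 had 0.15 and 0.13. The factors of mitochondrial translation were mostly blank, with 2 of 7 measured in both, and both means were positive. MRF1 (YGL143C), the mitochondrial release factor, had 0.32 and 0.11.

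The nearest functional relatives of the translation factors were described in the same way. Of 131 cytosolic ribosomal protein genes with both values, 80 were negative (61.1%, against 47.9% of all ORFs), with a median of -0.06. Among them 65 were negative in both replicates (49.6%, against 32.4% of all ORFs). A further 12 were positive in replicate 1 and negative in replicate 2 (9.16%, against 23.7%), and 97 had the same sign in both (74.05%, against 64.1%). Of 21 aminoacyl-tRNA synthetase genes, 10 were negative (47.6%), with a median of 0.02, and 15 had the same sign in both (71.4%). The other 6 were positive in replicate 1 and negative in replicate 2 (28.6%, against 23.7% of all ORFs). Their lists were described by these counts, and the differences from the translation factors were not tested.

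**Figure D5:**
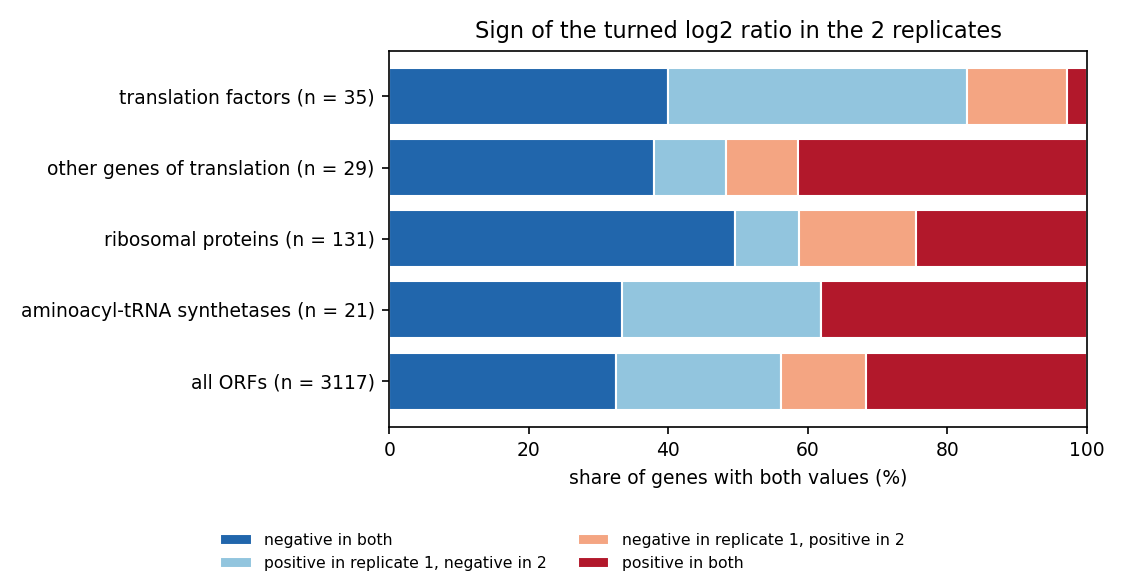
Share of genes (%) by the sign of their log2 ratio in the replicates, with replicate 1 turned, for the translation factors, the other genes of translation, the ribosomal proteins, the aminoacyl-tRNA synthetases and all ORFs. The translation factors have 40.0% negative in both and 42.9% positive in replicate 1 and negative in replicate 2, against 32.4% and 23.7% of all ORFs.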

How the data were processed

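The authors deposited 1 table with a log2 dye ratio per ORF for each of 2 columns. The scale was read from the deposited values: 2 to the power of each had at most 4 decimals in 100% of cases (within 0.01 of the last decimal). The sources used here do not say how background, normalization, centring, spots and blanks were handled. Column medians were -0.07 and -0.04. The 2 control entries were left out. The RefSeq table matched 5654 of 6207 ORFs and all 41 members.

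Replicate 1 was multiplied by -1 (r between the deposited columns -0.29, Spearman rho -0.33). The 3117 ORFs with both values were tested with limma 3.58.1 in R 4.3.3, with an intercept, eBayes, two-sided p and Benjamini-Hochberg adjustment over all.

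The members and lists were chosen with earlier results of these data known. The naming rule covered members of mean size over 0.3, the greatest of each role, paralogs, members blank in 1 replicate and up to 3 genes per related list. Other members, GCN1 and GCN2 were named after their values were seen. Alternatives were the opposite turning, centring, scaling, limma settings, fold limits and leaving out a replicate.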

Additional observations from a re-analysis of the deposited data

How the results depend on the processing

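The count of members called by limma was 0 with replicate 1 turned and the columns not centred. It was also 0 with centred columns (lowest adjusted p 0.057, limma), centred and scaled columns (0.067) and the robust prior (0.372). The count was again 0 with a minimum fold of 1.2, ORFs measured in at least 1 column (0.364) and the opposite turning. The values of 0.057 and 0.067 both belonged to TEF1, whose replicates lay at -0.22 and -1.07. With centred columns limma called 3.69% of all ORFs. Its prior degrees of freedom were 2.64 with replicate 1 turned and the columns not centred, and 17.1 with centred columns. Members with a negative mean numbered 20 to 24 under these scalings, the opposite turning, ORFs with 1 value and 3 pairs of genes that encode identical proteins counted once (an alternative added after the values were seen), and 19 to 29 with 1 replicate alone. The median of the members, -0.09, lay between -0.09 and -0.06 under the same alternatives and between -0.18 and -0.073 with 1 replicate alone. Members beyond 1.5-fold with the same sign, 1 as reported, were 2 under the opposite turning (EFT1 at -0.61 and YEF3 at -0.60, with TEF1 within the limit at -0.43 and its columns on opposite sides), 2 at a lower log2 limit of 0.32, 0 at 2-fold and 2 to 3 with 1 replicate alone. Fewer columns or another limit changes that count by construction. With replicate 1 left unturned, 21 of 35 means changed side. They were those of TIF1 (0.076), TIF3 (0.034), DED1 (-0.18), CAF20 (0.11), EAP1 (-0.34), RPG1 (-0.50), PRT1 (-0.36), NIP1 (0.0063), HCR1 (-0.14), SUI1 (0.0090), GCN3 (0.23), GCD7 (-0.17), GCD1 (-0.12), TEF2 (0.19), TEF4 (-0.068), CAM1 (-0.095), EFT1 (-0.61), HYP2 (-0.067), ANB1 (0.075), SUP45 (0.096) and SUP35 (0.031), each with an adjusted p of 0.999 (limma). Centring and scaling changed the side of 0 members. Counting pairs by computed protein identity was not run, because no protein sequences were used here. Background correction and spot filters could not be varied without intensities. No block was fitted, because each ratio already pairs the treated and untreated RNA of its replicate.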
